A study of Mus musculus with 6 samples.

Results

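The transcription factors that steer CD4 helper T cells toward their lineages are described here on every probe set that the platform annotation gave them. The 10 genes are Tbx21, Eomes, Gata3, Bcl6, Prdm1, Rora, Maf, Ahr, Batf and Nfil3, out of 18193 genes with at least 1 probe set of a single symbol. They were taken by gene name, with earlier results of these data known. Their share of calls beside that of all genes is therefore a description and not a test. They held 26 probe sets, 23 of which were among the 23484 tested, and all 10 genes were among the 11019 genes tested.

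Expression was measured on Affymetrix mouse arrays in T cells taken from BALB/c Rag1-/- hosts, which cannot make T or B cells of their own. Every host carried the same 2 donor populations, 500000 wild-type regulatory T cells induced in culture (iTreg) and wild-type natural regulatory T cells (nTreg), and the protocols describe injection into mice with colitis. Cells were sorted after 125 days from spleens and mesenteric lymph nodes of 14 mice and pooled. Ex-iTreg cells were Thy1.1+, the mark of the transferred iTreg cells, and lacked EGFP, the reporter of Foxp3. The iTreg cells were positive for both marks, and nTreg cells were EGFP+ without Thy1.1. Each population has 2 arrays, called pools here. Whether the pools of 1 population held different mice is not given in the labels, and p-values therefore measure only the spread between these arrays, which may be technical.

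Naive helper cells become Th1, Th2, Th17 or follicular helper cells under the control of a small set of transcription factors that promote one programme and often repress another. Tbx21 (T-bet) and Eomes are T-box factors of the Th1 and cytotoxic programmes, Gata3 directs Th2 cells, and Bcl6 directs follicular helper cells in mutual antagonism with Blimp-1, the product of Prdm1. Rora, Maf, Ahr and Batf take part in Th17 differentiation, and Nfil3 is a basic leucine zipper repressor. Several of them, Gata3, Prdm1, Maf and Batf among them, are also used by regulatory T cells in tissues.

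The 4 regulators that lay at least 2-fold apart between ex-iTreg and iTreg cells were Prdm1, Nfil3, Eomes and Bcl6, and their promoters are shown for that reason. Each window is the 250 bases before an annotated transcript start, 5′ to 3′ along the gene's strand, from RefSeq on build GRCm38.p6. Prdm1 is at chr10:44458749-44458998 on the minus strand, Nfil3 at chr13:52981040-52981289 on the minus strand and Eomes at chr9:118477939-118478188 on the plus strand. Bcl6 has 2 windows on the minus strand, chr16:23988853-23989102 and chr16:23981284-23981533. Capitals mark every match, on either strand, to 1 of the motifs given after the sequences.
Prdm1: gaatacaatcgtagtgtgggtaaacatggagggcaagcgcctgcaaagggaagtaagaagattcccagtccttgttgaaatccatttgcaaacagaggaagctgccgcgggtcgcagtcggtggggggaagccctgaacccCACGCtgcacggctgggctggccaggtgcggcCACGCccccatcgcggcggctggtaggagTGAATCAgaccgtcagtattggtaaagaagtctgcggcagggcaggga
Nfil3: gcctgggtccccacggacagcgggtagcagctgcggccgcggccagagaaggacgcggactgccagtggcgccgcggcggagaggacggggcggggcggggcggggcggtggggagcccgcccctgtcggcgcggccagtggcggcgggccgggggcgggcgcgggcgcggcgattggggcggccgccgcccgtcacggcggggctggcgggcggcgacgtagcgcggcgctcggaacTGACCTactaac
Eomes: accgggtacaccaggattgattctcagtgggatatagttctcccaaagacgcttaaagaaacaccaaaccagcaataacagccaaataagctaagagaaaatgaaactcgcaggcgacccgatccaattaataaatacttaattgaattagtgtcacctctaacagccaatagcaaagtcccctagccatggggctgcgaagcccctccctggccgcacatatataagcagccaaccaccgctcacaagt
Bcl6, first window: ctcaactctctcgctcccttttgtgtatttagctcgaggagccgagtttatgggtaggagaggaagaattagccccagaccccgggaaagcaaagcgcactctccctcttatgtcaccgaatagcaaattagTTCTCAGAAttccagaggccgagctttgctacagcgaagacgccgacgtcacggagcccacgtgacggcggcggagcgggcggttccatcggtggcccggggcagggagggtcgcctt
Bcl6, second window: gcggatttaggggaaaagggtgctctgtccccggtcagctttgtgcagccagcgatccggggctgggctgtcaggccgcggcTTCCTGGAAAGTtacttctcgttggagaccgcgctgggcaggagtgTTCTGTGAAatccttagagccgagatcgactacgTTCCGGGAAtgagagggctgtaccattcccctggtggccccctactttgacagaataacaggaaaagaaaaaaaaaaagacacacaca
The Prdm1 window held a match to TGANTCA, searched for AP-1 and Batf with any base allowed at N, at -48 to -42. Its letters were TGAATCA, and 6.75% of 32851 such windows of the table held a match to this loose motif. The Prdm1 window also held 2 matches to the Ahr core (GCGTG), which 28.2% of windows hold. Both Bcl6 windows held the Bcl6 and STAT motif (TTCNNNGAA), present in 7.02% of windows, once in the first window and 3 times in the second. The second Bcl6 window also held the Blimp-1 core (GAAAGT, 12.3% of windows) at -162 to -157, overlapping the TTCNNNGAA match at -168 to -160. The Nfil3 window, of 81.6% G and C, held a ROR motif (AGGTCA, 14.0% of windows) at -12 to -7. The Eomes window held none of these, and none of the 5 windows held TTANGTAA (for Nfil3, in 2.06% of windows), GGTGTGA (for T-box factors, 3.33%), AGATAA (for Gata3 and its relatives, 9.99%) or TATAAA (the core promoter box, 12.4%). A match describes letters in the window and no binding was measured.

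Values are log2 expression as deposited, and a gene is represented by whichever of its tested probe sets was brightest on average. All 10 representative probe sets lay above the filter level of 5.48, the median of all values, on every array. Differences were tested with limma, with p-values adjusted over all 23484 tested probe sets and a threshold of 0.05. With 2 arrays in each population the smallest two-sided p of an exact permutation test is 0.33, and each call rests on the spread that limma pools over probe sets. In sorted bulk RNA, fewer cells of a type and less RNA per cell cannot be told apart.

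**Figure D1:**
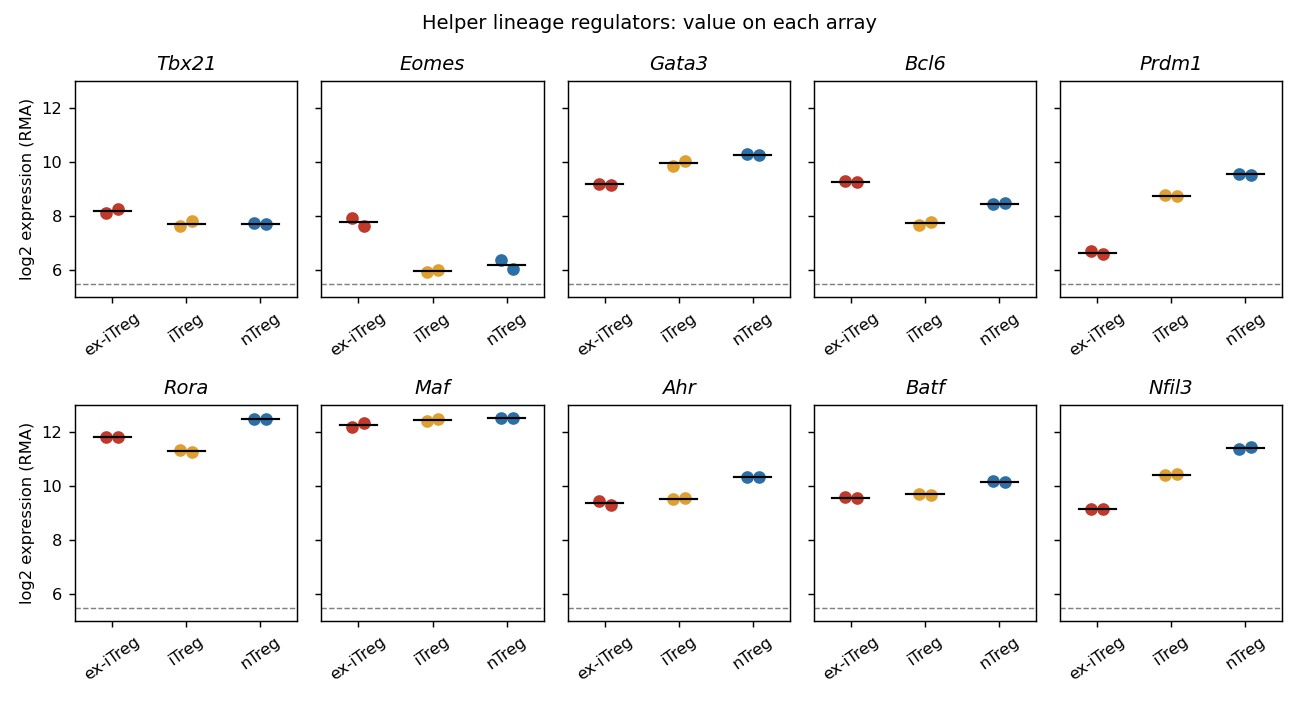
Log2 expression (vertical axis) of the representative probe set of each regulator on the 6 arrays, by population; points are arrays, bars are means of 2 pools and the dashed line is the filter level of 5.48. Prdm1 and Nfil3 were lowest in both ex-iTreg pools, Bcl6 and Eomes were highest there, and Rora was lowest in both iTreg pools.

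Ex-iTreg cells had more Eomes, Bcl6, Rora and Tbx21 and less Prdm1, Nfil3 and Gata3 than iTreg cells. In limma's fit 4 of the 10 regulators rose, 3 fell and Maf, Ahr and Batf did not pass, where 36.6% of all 11019 tested genes were called (15.6% higher and 21.0% lower). Of the 10, 4 differed by 2-fold or more as well as passing the test, against 3.54% of all genes. The median absolute difference was 0.66 log2 units for the regulators and 0.18 for all genes. Over the regulators' 23 tested probe sets, 12 rose and 6 fell, against 17.7% and 19.3% of all probe sets (37.0% in either direction). The ex-iTreg and iTreg pools did not overlap for any of the 10 regulators, nor for 72.8% of all genes.

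Against nTreg cells, ex-iTreg cells had more Tbx21, Eomes and Bcl6 and less of the other 7 regulators. All 10 passed limma's test, where 37.4% of all genes did (18.4% higher and 19.0% lower), and 4 of the 10 passed at 2-fold or more, against 5.83% of genes. The median difference was -0.62 log2 units for the regulators and 0.03 for all genes. Over the 23 probe sets, 5 rose and 17 fell, against 18.1% and 18.4% of all probe sets (36.4% in either direction). The pools did not overlap for any of the 10, nor for 71.1% of all genes.

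Between the Foxp3 reporter-positive populations, no regulator rose in iTreg against nTreg cells, in limma's fit also at an unadjusted p under 0.05 (0 of 10 genes and 0 of 23 probe sets). Gata3, Bcl6, Prdm1, Rora, Ahr, Batf and Nfil3 fell in iTreg cells and Tbx21, Eomes and Maf did not pass, where 29.1% of genes were called (16.4% higher and 12.7% lower). Rora alone passed at 2-fold or more, which 2.26% of genes did. The median difference was -0.59 log2 units for the regulators and 0.04 for all genes. Over the 23 probe sets, 0 rose and 13 fell, against 14.6% and 14.5% of all probe sets (29.1% in either direction). The pools did not overlap for 9 of the 10, all but Tbx21, nor for 68.0% of all genes. The 3 comparisons share arrays and are not independent of each other.

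**Figure D2:**
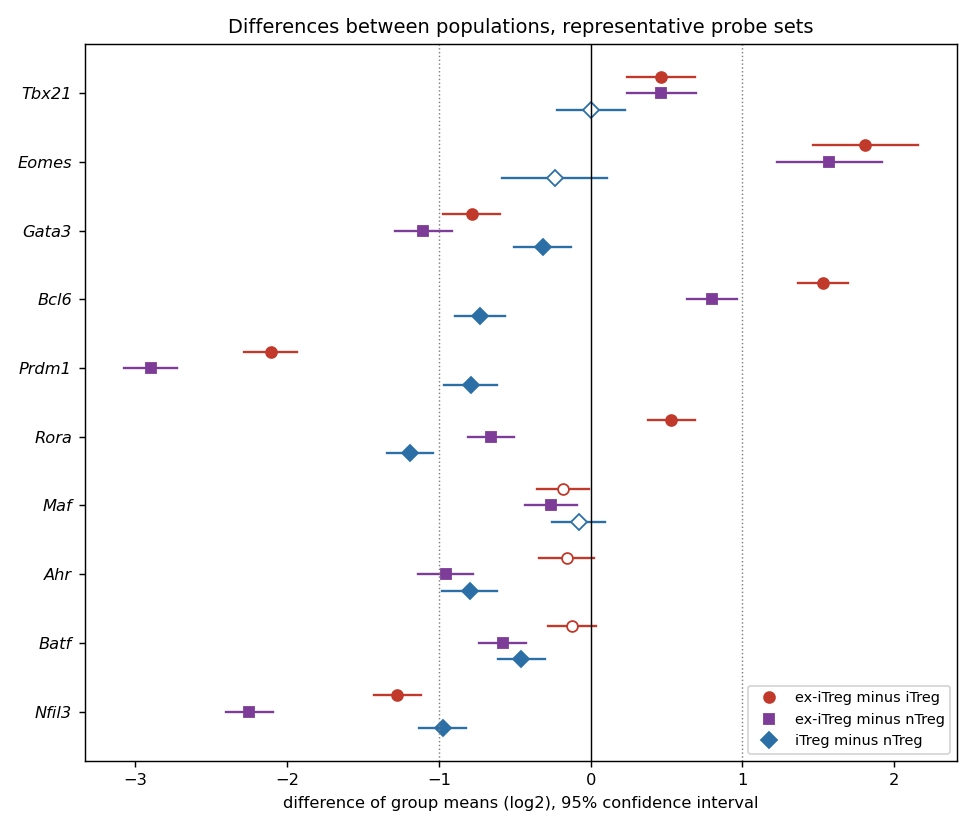
Difference of group means (log2, horizontal axis) with its 95% confidence interval for each regulator, in ex-iTreg minus iTreg, ex-iTreg minus nTreg and iTreg minus nTreg; filled symbols passed limma's test and dotted lines mark 2-fold. Prdm1 in ex-iTreg minus nTreg lay farthest from 0, at -2.90, and the interval of Tbx21 in iTreg minus nTreg spanned 0.

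Tbx21, the factor that specifies Th1 cells, has a single probe set on the array. Its log2 values were 8.10 and 8.27 in the ex-iTreg pools, 7.63 and 7.82 in the iTreg pools and 7.74 and 7.70 in the nTreg pools. Both ex-iTreg pools lay above the other 4 arrays, while the iTreg pools lay on either side of the nTreg pools. Ex-iTreg exceeded iTreg by 0.46 ± 0.09 log2 units (SE), or 1.38-fold (limma adjusted p = 0.0104), and exceeded nTreg by 0.47 ± 0.09, or 1.38-fold (limma adjusted p = 0.00994). Between iTreg and nTreg the difference was 0.00, with a 95% interval of -0.22 to 0.23 (limma adjusted p = 0.988). Without ex-iTreg pool 2 both calls were lost (limma adjusted p = 0.0672 against iTreg and 0.0648 against nTreg), and without iTreg pool 1 the call against iTreg was lost (0.0535).

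Eomes, the T-box factor of cytotoxic and memory T cells, differed more. Its values were 7.95 and 7.64 in ex-iTreg pools, 5.94 and 6.02 in iTreg pools and 6.39 and 6.05 in nTreg pools. The ex-iTreg pools stood more than 1 log2 unit above every other array. Ex-iTreg exceeded iTreg by 1.81 ± 0.14, or 3.51-fold (limma adjusted p = 0.000343), and nTreg by 1.57 ± 0.14, or 2.98-fold (limma adjusted p = 0.000388). The iTreg pools lay just below the nTreg pools, a difference of -0.24 with an interval of -0.58 to 0.11 that did not pass (limma adjusted p = 0.261). It was -0.07 without nTreg pool 1 and -0.40 without nTreg pool 2, and passed in neither. A second Eomes probe set read 7.25 and 7.31 in ex-iTreg pools, 5.77 and 5.25 in iTreg pools and 5.77 and 5.81 in nTreg pools, and gave 1.77 and 1.49 for the same ex-iTreg contrasts. The iTreg and nTreg values of Eomes lay close to the filter level on both probe sets.

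The genes that Tbx21 and Eomes regulate in Th1 and cytotoxic cells were followed as a list of 18, of which 15 were tested. In ex-iTreg against iTreg cells 10 rose, 4 fell and 1 did not pass, where 36.6% of all genes were called. The median difference was 0.80 log2 units beside -0.02 over all genes. Gzmk, a granzyme, averaged 10.40 in ex-iTreg and 6.70 in iTreg (13-fold). The chemokine gene Ccl5 averaged 12.61 and 10.09 (5.75-fold), and Fasl, the ligand of the death receptor Fas, averaged 9.66 and 7.44 (4.67-fold), ex-iTreg first. The 4 that fell were the granzyme gene Gzmb (9.12 in ex-iTreg and 10.62 in iTreg), the perforin gene Prf1 (7.07 and 7.35), the chemokine receptor gene Cxcr3 (11.26 and 11.77) and the cytokine receptor gene Il2rb. Against nTreg 9 rose, 3 fell and 3 did not pass (median 0.90), where 37.4% of all genes were called. Ifng, the signature Th1 cytokine, averaged 9.38 in ex-iTreg and 7.46 in nTreg. Xcl1, counted as higher in both ex-iTreg contrasts, averaged 6.06 in ex-iTreg and under the filter level in iTreg (5.14) and nTreg (5.16). It was thus tested through its ex-iTreg level, and its rises follow from the filter. Its difference against nTreg is also the list median there. In iTreg against nTreg, where 29.1% of all genes were called, only Ifng (0.61 ± 0.07) and Prf1 (0.82 ± 0.07) rose. There 5 fell and 8 did not pass (median 0.01, and 0.04 over all genes).

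Markers of CD8 T and NK cells, which also use Eomes and Tbx21, were divided. The log2 of their summed linear signal was 10.03 and 10.07 in ex-iTreg pools, 9.11 and 9.21 in iTreg pools and 9.78 and 9.79 in nTreg pools. Summed levels of the other marker lists below were formed the same way, so the brightest markers weigh most. Of 7 markers, the NK receptor genes Ncr1 and Klra8 lay below the filter level on every array. In ex-iTreg against iTreg, Cd8a, Klrk1 and Klrd1 rose, Cd8b1 fell and Gzma did not pass (median 0.33 over the 5 tested). In ex-iTreg against nTreg, Klrk1 and Klrd1 rose, Cd8b1 and Gzma fell and Cd8a did not pass, and in iTreg against nTreg Klrd1 rose and Cd8a, Cd8b1 and Gzma fell. Klrk1 averaged 7.81 in ex-iTreg and 4.67 in iTreg, and was under the filter level on every iTreg and nTreg array. It was thus tested only through ex-iTreg, and its rises follow from the filter. Cd8b1 averaged 5.27, 6.02 and 7.11 in ex-iTreg, iTreg and nTreg cells. The part of CD8 T and NK cells in the results for Tbx21 and Eomes was not tested.

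Gata3, the Th2 master regulator and also a factor of tissue regulatory T cells, ran the other way. Its values were 9.20 and 9.15 in ex-iTreg pools, 9.88 and 10.05 in iTreg pools and 10.30 and 10.26 in nTreg pools. The populations formed 3 steps with no overlap, lowest in ex-iTreg and highest in nTreg. Ex-iTreg fell short of iTreg by 1.72-fold (-0.78 ± 0.08, limma adjusted p = 0.000746) and of nTreg by 2.15-fold (-1.10 ± 0.08, limma adjusted p = 0.000138). The step between iTreg and nTreg was -0.32 ± 0.08, or 1.25-fold (limma adjusted p = 0.0265). That smallest step kept its direction but lost its call when any array other than iTreg pool 2 was left out (limma adjusted p up to 0.115) and when no filter on low values was applied (0.0658).

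Of 14 Th2 genes, 6 were tested, and the Th2 cytokine genes Il4, Il5 and Il13 were among those that stayed under the filter. In ex-iTreg against iTreg 4 fell, Epas1 rose and 1 did not pass (median -0.31), where 36.6% of all genes were called. Epas1, which encodes a hypoxia-inducible factor, averaged 9.05 in ex-iTreg, 7.39 in iTreg and 8.71 in nTreg cells, an order unlike that of Gata3. Il4ra, the interleukin 4 receptor chain, averaged 9.41 in ex-iTreg and 9.73 in iTreg, while its 2 other probe sets did not pass and lay above 0 (0.02 and 0.15). Ccr3 averaged 4.53 in ex-iTreg, 5.86 in iTreg and 6.84 in nTreg cells, and Ccr8 averaged 4.84, 5.14 and 6.57 in the same order, with ex-iTreg and iTreg both under the filter level, so that folds against levels under the filter are not given. Against nTreg 3 fell, 1 rose and 2 did not pass in ex-iTreg, where 37.4% of all genes were called. In iTreg 3 fell and 3 did not pass, where 29.1% of all genes were called. Ccr8 is counted among the genes that fell in each of the 3 comparisons. It was tested through its nTreg level, and its falls against nTreg follow from the filter.

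Bcl6, the repressor that specifies follicular helper cells, was highest in ex-iTreg cells and lowest in iTreg cells. Its values were 9.30 and 9.26 in ex-iTreg pools, 7.69 and 7.80 in iTreg pools and 8.47 and 8.48 in nTreg pools. No populations overlapped, and nTreg lay about midway between the others. Ex-iTreg exceeded iTreg by 1.53 ± 0.07, or 2.89-fold (limma adjusted p = 4.11e-05), and nTreg by 0.80 ± 0.07, or 1.74-fold (limma adjusted p = 0.000294). The iTreg level was below that of nTreg by 1.66-fold (-0.73 ± 0.07, limma adjusted p = 0.000980). A dim second Bcl6 probe set averaged 6.07 in ex-iTreg, 5.44 in iTreg and 5.41 in nTreg cells, so that only ex-iTreg stood above the filter level. This probe set passed in both ex-iTreg contrasts but not in iTreg minus nTreg, at 0.03 (limma adjusted p = 0.836). The mean of the 2 probe sets gave -0.35 there in place of -0.73.

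Prdm1, which encodes Blimp-1, the antagonist of Bcl6, was the regulator farthest apart in either ex-iTreg contrast. Its single probe set read 6.72 and 6.59 in ex-iTreg pools, 8.78 and 8.75 in iTreg pools and 9.58 and 9.53 in nTreg pools. The pools of a population lay close together, and the populations fell in 3 separate steps. Ex-iTreg cells had 4.31-fold less than iTreg cells (-2.11 ± 0.07, limma adjusted p = 1.52e-05) and 7.46-fold less than nTreg cells (-2.90 ± 0.07, limma adjusted p = 2.36e-06). The iTreg cells had 1.73-fold less than nTreg cells (-0.79 ± 0.07, limma adjusted p = 0.000888). Bcl6 and Prdm1 thus lay on opposite sides in both ex-iTreg contrasts, and on the same side in iTreg minus nTreg. Blimp-1 is also a plasma cell factor, and the summed level of 8 B and plasma cell markers was 11.71 and 11.69 in ex-iTreg pools, 12.56 and 12.57 in iTreg pools and 12.57 and 12.56 in nTreg pools. Of the 5 tested, 4 fell in ex-iTreg against iTreg (Ms4a1, Cd79b, Ighm and Jchain, list median -0.37), 3 fell in ex-iTreg against nTreg (Ms4a1, Cd79b and Ighm, median -1.12), and in iTreg against nTreg Ms4a1 and Cd79b fell and Jchain rose (median -0.28). The shares of all genes that fell were 21.0%, 19.0% and 12.7% in the same order of comparisons. The B cell markers Cd79a, Pax5 and Fcrla were below the filter level on every array. The immunoglobulin gene Ighm averaged 11.09 in ex-iTreg, 12.15 in iTreg and 12.21 in nTreg cells, and the plasma cell gene Jchain 9.92, 10.30 and 9.83 in the same order. Ms4a1 was under the filter level in both ex-iTreg and iTreg cells. It was thus tested through its nTreg level, and its falls against nTreg follow from the filter. Of the 4 other Ighm probe sets 1 was higher and 1 lower in ex-iTreg than in iTreg. The part of such cells in the Prdm1 result was not tested.

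Of 14 follicular helper genes 12 were tested. In ex-iTreg against iTreg 7 rose, Cd200 fell and 4 did not pass (median 0.28), where 36.6% of all genes were called. Tox was among the 4, at -0.29 on its representative probe set, while its 2 other probe sets fell (-0.62 and -0.54). Tox2, a factor that acts with Bcl6, averaged 11.20 in ex-iTreg and 9.36 in iTreg (3.57-fold), and the inhibitory receptor gene Btla averaged 10.83 and 10.09 (1.68-fold). The cytokine gene Il21 averaged 8.86 in ex-iTreg, and lay under the filter level in iTreg (4.07) and nTreg (3.59). Pou2af1, like Il21 counted as higher in both ex-iTreg contrasts, also averaged under it in iTreg (5.01) and nTreg (4.54). Both genes were thus tested through their ex-iTreg level, and their rises in the ex-iTreg contrasts follow from the filter. Against nTreg the list divided, with 6 higher, 4 lower and 2 not passing in ex-iTreg cells (37.4% of all genes were called). Pdcd1, which encodes the receptor PD-1 that follicular helper cells carry, was 4.0-fold lower in ex-iTreg than in nTreg, at 6.76 and 8.75, and Tox was 3.88-fold lower, at 8.67 and 10.62. In iTreg against nTreg, where 29.1% of all genes were called, 6 fell, Pdcd1 by 3.54-fold and Tox by 3.17-fold among them. Il6st and Il21 passed as higher there, Il21 with both populations under the filter level.

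Of 7 genes that Bcl6 is known to repress, 4 rose in ex-iTreg against iTreg, 1 fell and 2 did not pass (median 0.50). The share of all genes called there was 36.6%. Gpr183, a migration receptor, averaged 11.38 in ex-iTreg and 10.10 in iTreg (2.42-fold), and Id2, an inhibitor of E proteins, averaged 12.29 and 11.05 (2.37-fold). Il7r, the interleukin 7 receptor, averaged 12.92 and 12.29 (1.55-fold), and Selplg fell, at 11.09 and 11.83. In ex-iTreg against nTreg 6 of the 7 rose and Selplg fell (median 0.58), where 37.4% of all genes were called. In iTreg against nTreg 3 rose, Id2 fell and 3 did not pass, where 29.1% of all genes were called.

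Genes that Blimp-1 represses divided in ex-iTreg against iTreg, with 2 of 6 higher and 2 lower (median -0.11). The share of all genes called there was 36.6%. Il2, the T cell growth factor gene, averaged 7.75 in ex-iTreg and was under the filter level in iTreg (4.32) and nTreg (4.46). It was thus tested only through ex-iTreg, and its rises in both ex-iTreg contrasts follow from the filter. Cxcr5, the follicle homing receptor, was 1.52-fold higher in ex-iTreg than in iTreg. Id3 averaged 6.85 in ex-iTreg and 8.15 in iTreg (2.46-fold lower) and Myc 9.25 and 9.76 (1.43-fold lower). Against nTreg 3 rose and Id3 fell in ex-iTreg (37.4% of all genes were called), and 3 rose and Cxcr5 fell in iTreg (29.1%).

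Rora, a retinoid-related orphan receptor of Th17 cells, has 9 probe sets, more than any other of the 10 genes. Its representative probe set read 11.81 and 11.82 in ex-iTreg pools, 11.32 and 11.25 in iTreg pools and 12.48 and 12.47 in nTreg pools. No populations overlapped, and iTreg was the lowest. The iTreg level was 2.29-fold below that of nTreg (-1.19 ± 0.06, limma adjusted p = 0.000148). Ex-iTreg was 1.45-fold above iTreg (0.53 ± 0.06, limma adjusted p = 0.00143) and 1.58-fold below nTreg (-0.66 ± 0.06, limma adjusted p = 0.000473). Of the Rora probe sets 7 were tested, and the other 2 stayed under the filter level on every array. All 7 fell in iTreg minus nTreg (-1.66 to -1.02) and in ex-iTreg minus nTreg (-0.94 to -0.66), and 6 of 7 rose in ex-iTreg minus iTreg (differences of 0.23 to 0.72 over the 7).

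Maf (c-Maf), which drives Il10 and Il21 in several helper subsets, was bright everywhere and differed little. Its representative probe set read 12.19 and 12.31 in ex-iTreg pools, 12.40 and 12.47 in iTreg pools and 12.51 and 12.51 in nTreg pools. Ex-iTreg pools were the lowest, by a margin close to the spread between pools. The difference was -0.26 ± 0.07 against nTreg, or 1.2-fold (limma adjusted p = 0.0314), and -0.18 against iTreg, with an interval of -0.36 to -0.01 (limma adjusted p = 0.0943). In iTreg minus nTreg it was -0.08, with an interval of -0.25 to 0.09 (limma adjusted p = 0.449). The call against nTreg was lost without either ex-iTreg pool or either nTreg pool (limma adjusted p = 0.0529 to 0.170) and without the filter (0.0827).

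The 6 Maf probe sets did not give 1 answer. In ex-iTreg minus iTreg 3 fell (-0.71, -0.63 and -0.25), 1 dim probe set rose (0.37, with means of 6.06 and 5.69) and 2 did not pass. Against nTreg 5 of 6 fell in ex-iTreg (-0.67 to -0.26) and the dim one did not pass at 0.09. In iTreg minus nTreg 0 of 6 passed limma's adjusted test and 3 were lower at an unadjusted p under 0.05 (differences of -0.28 to 0.07 over the 6).

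**Figure D3:**
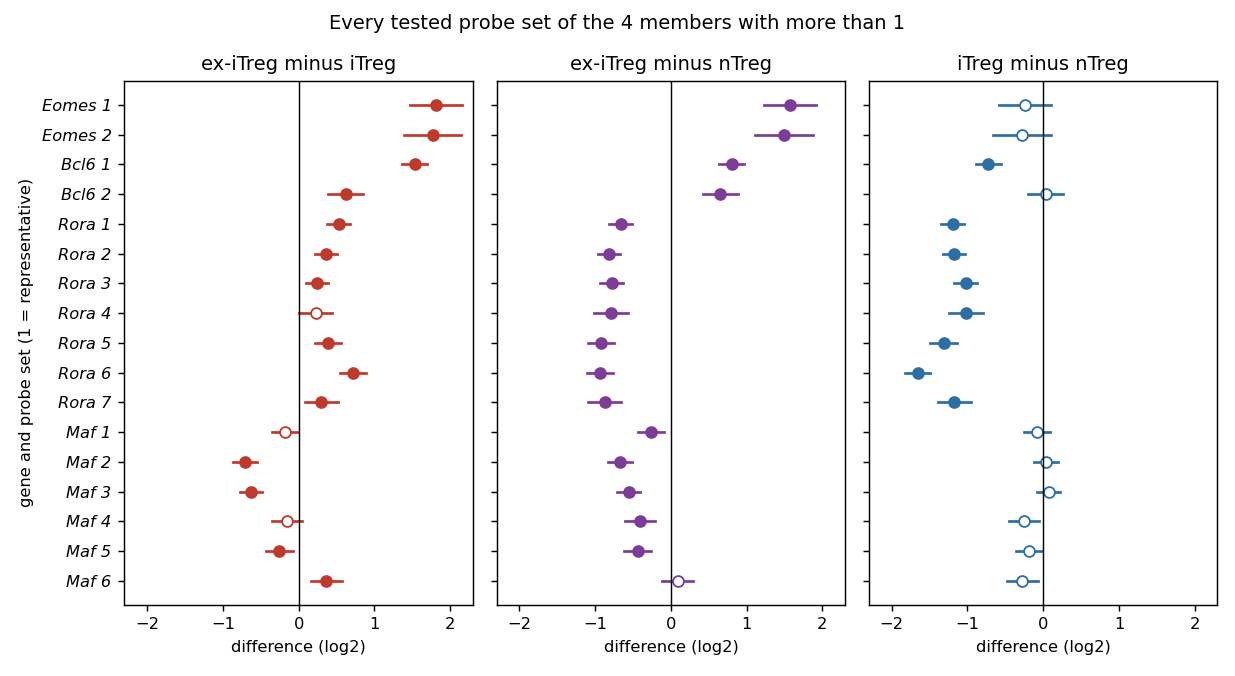
Difference (log2, horizontal axis) with its 95% confidence interval for each tested probe set of Eomes, Bcl6, Rora and Maf, the 4 regulators with more than 1, in the 3 comparisons; filled points passed limma's test and probe set 1 is the representative. The 7 Rora probe sets lay on the same side of 0 in each panel, while the Maf probe sets lay on both sides in ex-iTreg minus iTreg.

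Ahr, the ligand-activated aryl hydrocarbon receptor that Th17 cells and tissue T cells use, was lower in both Thy1.1+ populations than in nTreg. Its values were 9.46 and 9.29 in ex-iTreg pools, 9.53 and 9.53 in iTreg pools and 10.33 and 10.32 in nTreg pools. The nTreg pools stood apart above the other 4 arrays, and both iTreg pools lay just above both ex-iTreg pools. Ex-iTreg was 1.94-fold below nTreg (-0.96 ± 0.08, limma adjusted p = 0.000225) and iTreg was 1.74-fold below nTreg (-0.80 ± 0.08, limma adjusted p = 0.00104). Ex-iTreg minus iTreg was -0.16, with an interval of -0.34 to 0.03 (limma adjusted p = 0.154). It was -0.24 without ex-iTreg pool 1 and -0.07 without ex-iTreg pool 2, and passed in neither. A second Ahr probe set stayed under the filter level and was not tested.

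Batf, the AP-1 family factor that opens chromatin with Irf4 in activated T cells, had the same order. It read 9.60 and 9.54 in ex-iTreg pools, 9.71 and 9.67 in iTreg pools and 10.17 and 10.13 in nTreg pools. Ex-iTreg was 1.5-fold below nTreg (-0.58 ± 0.06, limma adjusted p = 0.000904) and iTreg 1.37-fold below nTreg (-0.46 ± 0.06, limma adjusted p = 0.00405). Ex-iTreg minus iTreg was -0.12, with an interval of -0.28 to 0.03 (limma adjusted p = 0.186).

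Th17 genes were higher in both Thy1.1+ populations than in nTreg cells, and highest in ex-iTreg cells. Of 8 tested genes, 7 rose in ex-iTreg against nTreg (median 2.72), 6 in ex-iTreg against iTreg (median 1.06) and 7 in iTreg against nTreg (median 0.68). The shares of all genes that rose were 18.4%, 15.6% and 16.4% in the same order. The 7 of iTreg against nTreg include Il21, which averaged 4.07 in iTreg and 3.59 in nTreg, both under the filter level, and was tested only through its ex-iTreg level. Its rises in the ex-iTreg contrasts, counted here too, therefore follow from the filter. By limma 0 of the 8 fell in any of the 3, also at an unadjusted p under 0.05. Il17a, the cytokine gene that defines Th17 cells, averaged 9.97 in ex-iTreg and 6.23 in iTreg (13.4-fold), and 5.42 in nTreg, which is under the filter level. Il17re, a receptor chain gene, averaged 9.29 in ex-iTreg, 7.43 in iTreg and 6.55 in nTreg, and Tmem176a 10.36, 9.18 and 7.32 in the same order.

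Of 10 genes listed as Ahr targets and partners 3 were tested, and the classical targets Cyp1a1 and Cyp1b1 were among those under the filter. Gpr15, a homing receptor of the large intestine, averaged 6.87 in ex-iTreg, 9.69 in iTreg and 9.47 in nTreg, 7.04-fold lower in ex-iTreg than in iTreg. Tiparp, an Ahr-induced gene, rose by 0.35 ± 0.06 in ex-iTreg against iTreg and by 0.42 ± 0.06 against nTreg. Arnt, the partner with which Ahr binds DNA, fell in both (-0.22 ± 0.06 and -0.39 ± 0.06), though neither of its 2 other probe sets passed against iTreg and 1 did against nTreg. Gpr15 rose by 0.22 ± 0.07 in iTreg against nTreg, where Ahr fell.

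Of 12 tested partners and relatives of Batf, 5 passed in ex-iTreg against iTreg (36.6% of all genes did), 5 in ex-iTreg against nTreg (37.4%) and 4 in iTreg against nTreg (29.1%). Between ex-iTreg and iTreg, Irf4 (9.25 in ex-iTreg and 10.06 in iTreg, 1.76-fold lower), Irf8 (6.79 and 8.35, 2.96-fold lower) and Bach2 (10.00 and 10.27), a repressor that competes at AP-1 sites, fell and Jund and Fosl2 rose. A second Irf4 probe set did not pass. Against nTreg, Irf4 was 2.04-fold and Irf8 3.01-fold lower in ex-iTreg, Junb and Bach1 were lower too, and Bach2 was higher (10.00 in ex-iTreg and 9.41 in nTreg). In iTreg against nTreg Bach2 rose by 1.81-fold, Fosl2 fell by 1.57-fold, and Jund and Bach1 fell.

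Nfil3, a leucine zipper repressor that acts in Th2, Th17 and regulatory T cells and at clock genes, followed the order of Prdm1. Its values were 9.14 and 9.14 in ex-iTreg pools, 10.41 and 10.42 in iTreg pools and 11.35 and 11.43 in nTreg pools. The 3 populations were separate, with little difference between the pools of each. Ex-iTreg was 2.42-fold below iTreg (-1.27 ± 0.06, limma adjusted p = 6.45e-05) and 4.75-fold below nTreg (-2.25 ± 0.06, limma adjusted p = 3.89e-06). The iTreg level was 1.96-fold below nTreg (-0.97 ± 0.06, limma adjusted p = 0.000294).

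Among 12 genes that compete with Nfil3 for D-box sites or belong to the circadian clock, 4 passed in each comparison, a share near that of all genes. Between ex-iTreg and iTreg, 3 rose and 1 fell (median -0.08). In limma's fit 0 rose, also at an unadjusted p under 0.05, in ex-iTreg against nTreg, where Dbp, Arntl, Cry1 and Cry2 fell (median -0.17), and in iTreg against nTreg, where Nr1d2, Per1, Arntl and Cry1 fell (median -0.22). Dbp, the activator that binds the same sites as Nfil3, averaged 7.68 in ex-iTreg, 8.57 in iTreg and 8.67 in nTreg, so that it was 1.85-fold lower than in iTreg and 1.98-fold lower than in nTreg. Nr1d2, a clock repressor, averaged 11.75 in ex-iTreg and 11.14 in iTreg (1.52-fold higher) and Per1 averaged 10.54 and 9.83 (1.64-fold higher). In ex-iTreg against iTreg Arntl was 0.35 higher on its representative probe set and lower on its other, so its direction there is unsettled.

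**Figure D4:**
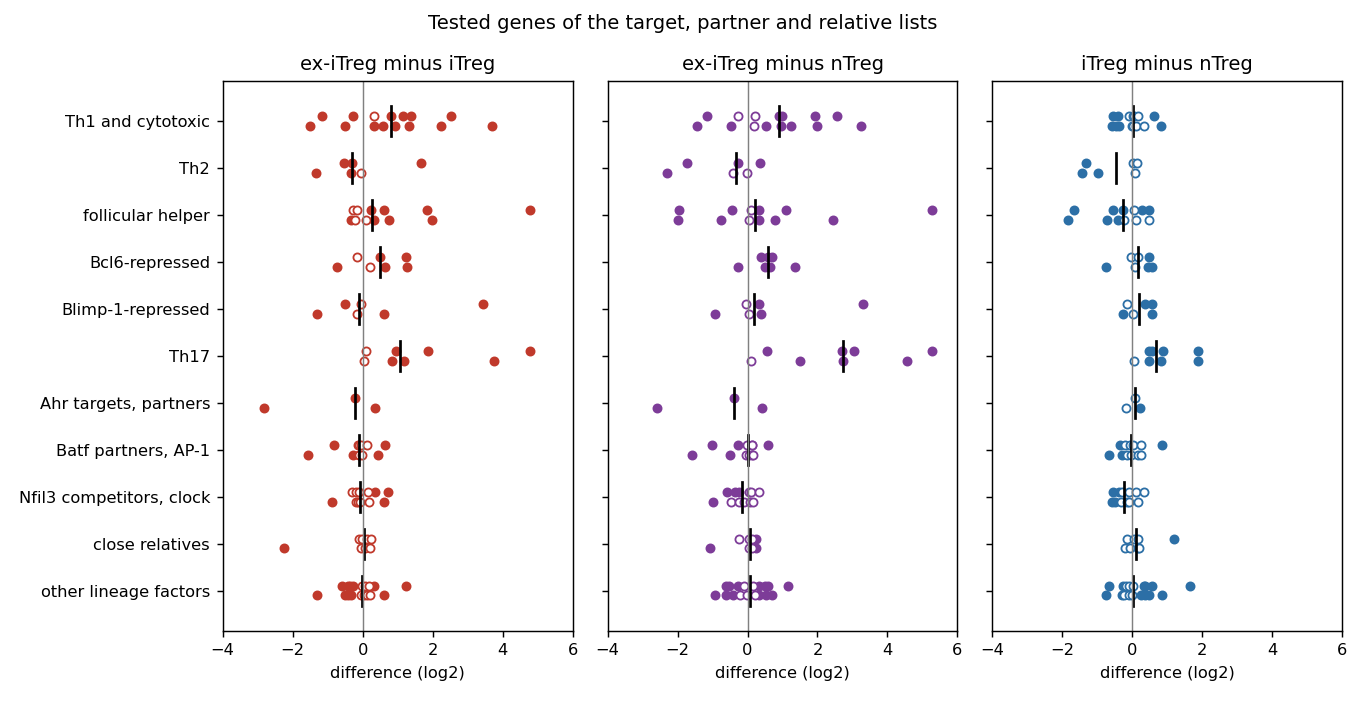
Difference (log2, horizontal axis) of each tested gene of the target, partner and relative lists, on its representative probe set, in the 3 comparisons; filled points passed limma's test and black bars are list medians. The Th17 list had its median at 1.06, 2.72 and 0.68 in the panels for ex-iTreg minus iTreg, ex-iTreg minus nTreg and iTreg minus nTreg, and the Nfil3 list at -0.08, -0.17 and -0.22.

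Of 8 tested close relatives of the regulators, 1 passed in ex-iTreg against iTreg (36.6% of all genes did), 3 in ex-iTreg against nTreg (37.4%) and 1 in iTreg against nTreg (29.1%). Gata1, the erythroid GATA factor, passed in each, at 5.35 in ex-iTreg, 7.60 in iTreg and 6.41 in nTreg. The summed erythroid markers were 8.67 and 8.47 in ex-iTreg pools, 9.25 and 9.19 in iTreg pools and 8.67 and 8.61 in nTreg pools, and their part in the Gata1 values was not tested. The small Maf genes Mafg (0.24 ± 0.07) and Mafk (0.25 ± 0.07) were the others, higher in ex-iTreg than in nTreg. Among 18 tested lineage factors and STAT genes outside the 10, 3 rose and 8 fell in ex-iTreg against iTreg (15.6% and 21.0% of all genes). In ex-iTreg against nTreg 7 rose and 6 fell (18.4% and 19.0% of all genes). In iTreg against nTreg 8 rose and 4 fell (16.4% and 12.7% of all genes). Stat6, which signals for interleukin 4 upstream of Gata3, was 1.49-fold lower in ex-iTreg (9.75) than in iTreg (10.33). Stat3, which signals upstream of Rora, Maf and Batf, was 1.54-fold lower in ex-iTreg (10.63) than in nTreg (11.25). Runx1 rose by 1.66 in iTreg against nTreg on its representative probe set, but its 5 other probe sets divided, with 1 higher, 1 lower and 3 not passing.

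Genes whose values over the 6 arrays lay nearest to those of a regulator were sought for the 6 regulators that spanned at least 1 log2 unit. Likeness was the root mean square difference of log2 values, each gene centred on its own mean, over 10575 genes. The nearest to Eomes was Mfsd6 (0.113), to Gata3 Cd99l2 (0.0361), to Bcl6 Mir142 (0.0563), to Prdm1 Neb (0.104), to Rora Nsmf (0.0424) and to Nfil3 Dst (0.0889). Next came Prelid2 (0.164) and Pde7a (0.176) for Eomes, Tacc2 (0.0433) and Mgst2 (0.0450) for Gata3, and Gpr171 (0.0722) and Sap30 (0.112) for Bcl6. For Prdm1 they were Lclat1 (0.146) and Ebi3 (0.155), for Rora Cbarp (0.0524) and Gfod1 (0.0648), and for Nfil3 Ccr3 (0.0892) and Ptprj (0.0939). Among the 10 regulators themselves, the nearest to Prdm1 was Nfil3 (0.362), to Eomes Bcl6 (0.343), to Rora Ahr (0.289) and to Gata3 Ahr (0.274).

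The populations also differed outside T cell genes. The summed level of 6 T cell markers was 14.63 to 14.70 on all arrays, though single markers differed. In ex-iTreg against nTreg Cd4 and Cd28 rose and Cd3e, Cd3g and Cd5 fell, and against iTreg Cd28 rose and Cd3e fell. In iTreg against nTreg 0 of the 6 passed. The summed level of 10 macrophage markers was 11.51 and 11.50 in ex-iTreg pools, 12.15 and 12.14 in iTreg pools and 11.23 and 11.15 in nTreg pools. Of 9 tested macrophage markers 8 fell in ex-iTreg against iTreg, 5 rose in ex-iTreg against nTreg and 8 rose in iTreg against nTreg. The shares of all genes called in those directions were 21.0%, 18.4% and 16.4%. Itgam was below the filter level on every array, and macrophages also express Maf. The summed neutrophil markers were 12.49 and 12.46 in ex-iTreg pools, 12.98 and 13.10 in iTreg pools and 12.75 and 12.76 in nTreg pools. Poly-A control spikes averaged 8.81 and 8.94 in ex-iTreg pools, 11.37 and 11.35 in iTreg pools and 10.03 and 10.12 in nTreg pools. The 3′ minus 5′ difference of the Gapdh control probe sets, a sign of RNA quality, was 0.00 and -0.04 in ex-iTreg pools, 0.38 and 0.52 in iTreg pools and 0.15 and 0.15 in nTreg pools, and that of Actb 0.38 and 0.36, 0.53 and 0.49, and 0.39 and 0.40 in the same order. The part of other cells, RNA quality and the labelling in the regulators' differences was not tested. The Foxp3 probe set read 3.99 to 4.29 on all 6 arrays, under the filter level, and so does not check the sort, whereas the summed regulatory T cell markers were 13.06 and 13.17 in ex-iTreg pools, 14.18 and 14.18 in iTreg pools and 14.78 and 14.82 in nTreg pools.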

How the data were processed

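RNA of sorted, pooled T cells was hybridised to 6 Affymetrix Mouse430_2 arrays, 2 for each of ex-iTreg, iTreg and nTreg cells. The authors deposited log2 expression values, with RMA named in the submitters' processing notes and no software version given in the sources used here. RMA puts all arrays on 1 distribution (medians 5.47 to 5.49), so a difference is relative to the whole array. Within a population the 2 arrays correlated at 0.996 to 0.997 over probe sets. The number of arrays limits the precision.

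Of 45101 probe sets, 64 were controls. Among the rest, 34945 had 1 annotated symbol, 932 several and 9160 none, and only those with 1 were named. Testing kept 23484 probe sets whose value passed 5.48, the overall median, on at least 2 arrays. The model was limma's lmFit with eBayes (version 3.58.1, R 4.3.3), with 1 mean per population, Benjamini-Hochberg adjustment over all tested probe sets and a threshold of 0.05; it was first tested on simulated data. The members, the pathway and marker lists and the tests were chosen with earlier results of these data known. Genes named were all 10 regulators, up to 4 called genes per list and comparison by absolute t, others to complete a count of 5 or fewer, and the 3 nearest genes of each regulator that spanned at least 1 log2 unit. Marker genes and the untested cytokine and Cyp genes were named after their values were seen. No fold is given where a population averaged under 5.48. Promoters came from a RefSeq table of build GRCm38.p6, which gave windows for 8 of the 10 genes; the files name no build and no array coordinates were used. The study's naive Tconv reference is not analysed here. Alternatives tried were other filters, the pool number as a block, 2-population fits, trend and robust variance, median centring, quantile normalization, the mean over probe sets, a 2-fold criterion and leaving out each array.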

Additional observations from a re-analysis of the deposited data

How the results depend on the processing

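The pools of a population number 2, so that the main fit had 3 residual degrees of freedom. To these limma added 3.37 from the spread over all tested probe sets. Fits with fewer arrays or with a block had fewer residual degrees of freedom. Signals near the filter level limit Eomes, the second Bcl6 probe set and the dimmest Maf probe set. Over all alternatives, 398 regulator differences kept their direction and their side of the threshold, 15 lost the call, 3 gained it and 4 changed sign. The 4 were all Tbx21 in iTreg minus nTreg, reported as 0.00, which became -0.00791 with median centring, -0.00708 with quantile normalization, -0.0938 without iTreg replicate 2 and -0.0139 without nTreg replicate 2 (-0.0938 to 0.0985 over the arrays left out), and never passed. Requiring 2-fold beside the test left 4 regulators called in ex-iTreg minus iTreg, 4 in ex-iTreg minus nTreg and 1 in iTreg minus nTreg. Leaving out each array in turn left 6 to 7, 8 to 10 and 6 to 7 regulators called in these comparisons, 46 to 59, 52 to 63 and 33 to 40 pathway genes of 60, 65 and 48, and 4971 to 9104, 5243 to 7928 and 3420 to 5380 probe sets of 8694, 8558 and 6826. The count of probe sets moved by over 1.5 times without ex-iTreg replicate 1 (5270 against iTreg and 5243 against nTreg), without ex-iTreg replicate 2 (4971 and 5305), and without iTreg replicate 1 (4002 in iTreg minus nTreg) or 2 (3420, and 5719 in ex-iTreg minus iTreg). Calls were gained by Ahr (limma adjusted p = 0.0489) and Maf (0.00149) in ex-iTreg minus iTreg with trend and robust variance, and by Maf there with the mean over its probe sets (0.0134). With 2-population fits Gata3 in iTreg minus nTreg lost its call (0.0542). Leaving out either array of the population outside a comparison gives that same fit, so the 398 and the 15 count it more than once. Pool numbers are shared by the populations, but the same-numbered pools did not deviate together (correlations -0.04, -0.088 and -0.007). These rest on a single pool difference in each population, so they cannot show whether the numbers pair the arrays. With the replicate block 7, 10 and 7 regulators, 57, 64 and 43 pathway genes, and 8011, 7814 and 5853 probe sets were called.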
